A study of Arabidopsis thaliana with 18 samples.

Results

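The comparison described here asks which transcripts responded differently to a light shift when the thylakoid kinase STN7 was missing. It uses 12 of the 18 arrays of the series, chosen by their titles: 3 each of wild type (WT, Col-0) at 0 min, WT at 30 min, the *stn7* knockout at 0 min and *stn7* at 30 min. The *stn7* line is SALK_073254, an insertion line in the Col-0 background, so the genotypes share that background and differ in 1 insertion line only. All plants grew for 20 days in continuous white light and then for 3 days in continuous light that favours photosystem I (PSI light), and the labels give an age of 23 days after germination. Plants at 0 min were harvested in PSI light, and plants at 30 min had spent that time in light that favours photosystem II (PSII light). Rosette leaves were taken under the light source, and each experiment used pools of at least 250 plants. The other 6 arrays, WT and *stn7* after 60 min in PSII light, entered the model only through the shared estimate of the spread.

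The quantity reported is the genotype difference in response, the 30 min minus 0 min change in *stn7* minus the same change in WT, on the log2 scale. A positive value means that the level moved upward in *stn7* relative to WT, which a rise in *stn7*, a fall in WT or both can give. It equals the genotype difference at 30 min minus that at 0 min, so each value below is set beside its 4 group levels. No group stayed in PSI light for 30 min, but the genotypes were harvested at the same times. The annotation used here ties STN7 to no probe set, so the state of the targeted gene was not analysed here.

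STN7 phosphorylates light-harvesting proteins when the plastoquinone pool between the photosystems is reduced, which lets part of the antenna move from photosystem II to photosystem I. PSI light oxidises the pool and PSII light reduces it. The same redox state is known to influence the expression of plastid and nuclear genes, and the study used *stn7* as the line in which this signal is not perceived.

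Arrays of 1 group did not all agree equally well, and this bears on every count below. The main pattern of deviations from the group means, called the within-group axis here, is the leading component of the residual values and held 28% of the variance within groups. WT 0 min replicates 1 and 3 scored 43.02 and 45.66 on it, and replicate 2 scored 9.86. The other groups compared had means of -14.8 ± 7 (SD, n = 3) in WT at 30 min, -2.9 ± 20.4 in *stn7* at 0 min and -15.4 ± 12.4 in *stn7* at 30 min. For genes that follow the axis, its part and that of the 30 min response in WT cannot be told apart. The 3' minus 5' log2 difference of the control probe sets, a sign of RNA integrity, lay between 0.87 and 0.93 as a mean in the 4 groups. The leaf gene LHCB4.1, of the photosystem II antenna, had a mean log2 level of 13.16 over all arrays, where array medians ran from 6.1 to 6.31.

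Of 22746 probe sets, 463 had a genotype difference in response at an adjusted p under 0.05 (limma, Benjamini-Hochberg over all probe sets), or 2.04%. Of these 217 were higher in *stn7* (0.954%) and 246 lower (1.08%), and 4525 had an unadjusted p under 0.05 (19.9%). The called values ran from 0.47 to 2.52 in size with a median of 0.89, and 161 were at least 2-fold. By themselves, 6267 probe sets (27.6%) changed in WT at 30 min and 1649 (7.25%) in *stn7*. The genotypes differed at 3609 probe sets (15.9%) at 0 min and at 404 (1.78%) at 30 min.

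In most of the 463 the called change was that of WT. In 144 of the 217 higher probe sets the level fell in WT with no called change in *stn7*, and in 56 it rose in *stn7* with no called change in WT. Over all probe sets 14.0% rose and 13.6% fell in WT, and 3.47% rose and 3.78% fell in *stn7*. In 190 of the 246 lower ones the level rose in WT with no called change in *stn7*, and in 34 it fell in *stn7* with no called change in WT. Genotypes differed already in PSI light at 333 of the 463, where 15.9% of all probe sets did. After 30 min of PSII light they differed at 96, where 1.78% of all did, with 17 in both counts and 51 in neither. The 463 were picked by a difference that is made of these changes and genotype differences. That favours probe sets with such calls, so all these counts are a description. The plot of the WT change against the *stn7* change shows most of the 463 left and right of the vertical zero line. They are spread less above and below the horizontal one.

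**Figure D1:**
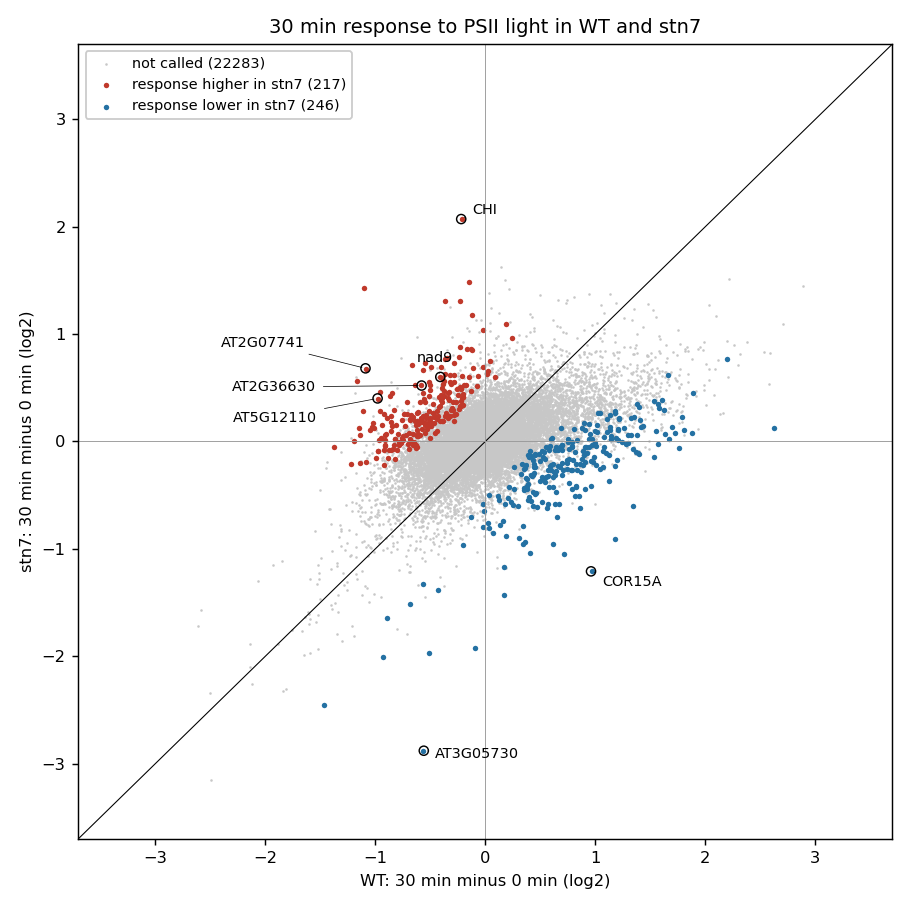
Change from 0 to 30 min (log2) in WT on the x axis and in *stn7* on the y axis for the 22746 probe sets; the diagonal marks equal responses. Red points (217) had a higher and blue points (246) a lower response in *stn7* at an adjusted p under 0.05, and circles mark the 7 named genes that were also called when the within-group axis was a covariate.

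The count moved strongly with the arrays used. Without WT 0 min replicate 1 it was 18 and without replicate 3 it was 23, while without replicate 2 it was 2216. The axis as a covariate left 11 (0.0484%), and without both WT 0 min arrays of high axis score it was 3. That setting leaves 1 array at WT 0 min, whose spread is taken to be that of the other groups. With the axis, all 463 kept their sign, their median size went from 0.89 to 0.64, and their standard error (SE) was 1.04 times as large at the median. The descriptions below therefore start with the genes that were called both without and with the axis.

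The most stable named difference was that of COR15A, a cold-regulated gene whose protein protects chloroplast membranes during freezing and drying. Its log2 level was 9.80, 9.84 and 10.28 in WT at 0 min and 11.05, 10.86 and 10.90 at 30 min. The *stn7* arrays read 10.10, 10.17 and 9.79 at 0 min and 8.94, 8.84 and 8.68 at 30 min. The genotypes overlapped in PSI light and lay apart after 30 min of PSII light, when every WT array was above and every *stn7* array below all arrays of 0 min. COR15A rose 1.95-fold in WT (0.96 ± 0.18 SE, limma adjusted p = 0.00085) and fell 2.31-fold in *stn7* (-1.21 ± 0.18, adjusted p = 0.000421). The difference was -2.17 ± 0.25 (adjusted p = 0.000822). It was called in all 23 alternative runs, with values from -2.32 to -2.08.

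AT3G05730, for which the annotation gives no product, had the largest negative value of all named genes. Its levels were 8.88, 9.37 and 9.02 in WT at 0 min and 8.22, 9.03 and 8.32 at 30 min, against 8.74, 9.60 and 9.35 and then 7.05, 5.86 and 6.14 in *stn7*. Only the *stn7* arrays at 30 min stood apart. The level fell by 2.88 ± 0.29 in *stn7* (limma adjusted p = 9.31e-06) and its change in WT was -0.56 ± 0.29 (adjusted p = 0.162), a difference in response of -2.31 ± 0.40 (adjusted p = 0.0196). The adjusted p was 0.0664 and 0.0597 without WT 0 min replicates 1 and 3, 0.0521 without WT 30 min replicate 2 and 0.0532 without *stn7* 30 min replicate 3, with values between -2.28 and -2.06.

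CHI, which the annotation describes as a putative chitinase (AT2G43570), an enzyme class that breaks down the chitin of fungal walls, had the largest positive value. Levels were 7.70, 7.03 and 8.01 in WT at 0 min, 7.29, 7.23 and 7.56 at 30 min, with 6.35, 6.54 and 6.06 in *stn7* at 0 min and 8.37, 8.33 and 8.44 at 30 min. The *stn7* arrays were the lowest of all in PSI light and the highest of all after 30 min, while the WT groups overlapped. CHI rose 4.19-fold in *stn7* (2.07 ± 0.23, limma adjusted p = 3.93e-05), and the difference in response was 2.28 ± 0.33 (adjusted p = 0.00576). The genotypes differed in both lights, by -1.27 at 0 min (adjusted p = 0.00503) and by 1.02 at 30 min (adjusted p = 0.0345).

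The other 4 genes called with the axis were higher. AT2G36630 had levels of 7.43, 7.25 and 7.5 in WT at 0 min and 6.77, 6.81 and 6.85 at 30 min, and of 6.89, 6.79 and 6.99 and then 7.45, 7.36 and 7.43 in *stn7*. The arrays of the genotypes exchanged places: it fell in WT (-0.58) and rose in *stn7* (0.52), a difference of 1.11 ± 0.13 (limma adjusted p = 0.0014). AT5G12110 fell in WT from 8.35, 8.26 and 8.19 to 7.29, 7.46 and 7.11, while the *stn7* arrays read 7.63, 7.65 and 7.87 at 0 min and 8.31, 7.92 and 8.11 at 30 min. Its difference was 1.37 ± 0.19 (limma adjusted p = 0.00538). AT2G07741 and the mitochondrial gene nad9 are described with the mitochondrial genes below.

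All 7 of these genes differed between genotypes at 30 min at an adjusted p under 0.05, and 4 of them also at 0 min. Over all probe sets 1.78% differed at 30 min and 15.9% at 0 min. The genes were picked by a called difference in response, which contains the 30 min genotype difference, so these counts only describe them. The values of the 7 ran from 1.01 to 2.31 in size and from 0.97 to 2.53 with the axis. Without both WT 0 min arrays of high axis score COR15A alone of the 7 was called (-2.30, limma adjusted p = 0.00713). The adjusted p of the other 6 then lay between 0.0902 for AT2G36630 and 0.453 for AT3G05730, and CHI moved to 1.73 (adjusted p = 0.193).

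**Figure D2:**
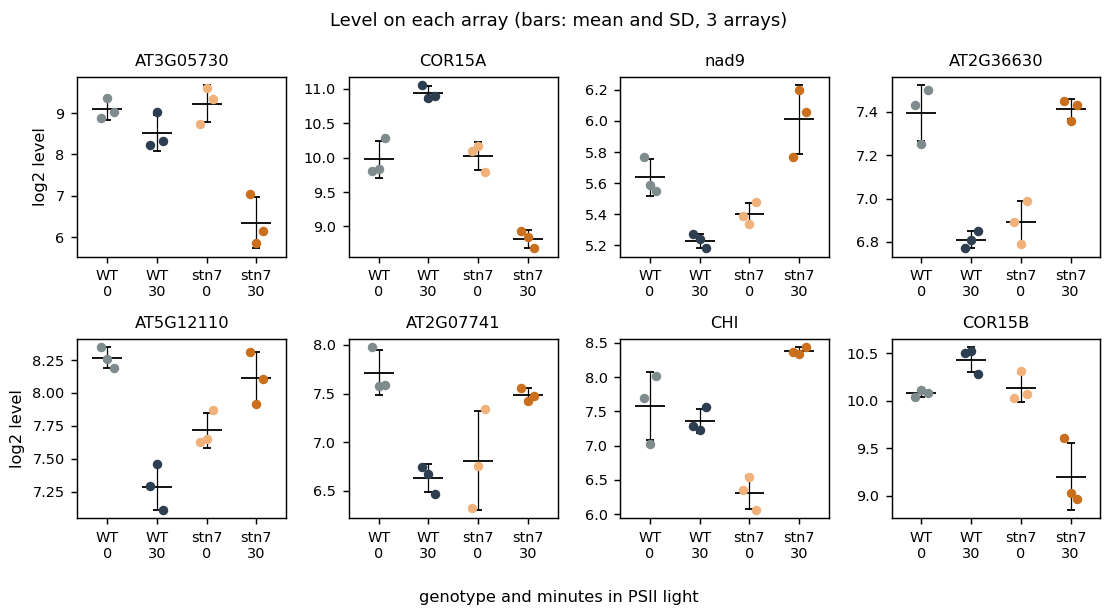
Log2 level on each array of the 7 genes called both without and with the within-group axis, and of COR15B, by genotype and minutes in PSII light; points are arrays, bars are the mean and SD of 3 arrays, and the y axes differ. The *stn7* arrays at 30 min are the lowest for AT3G05730, COR15A and COR15B, and their mean is the highest for CHI and nad9.

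The probe set with the smallest p is annotated to several genes and is therefore not named; it was chosen once its values were known. Its levels were 8.05, 7.46 and 8.57 in WT at 0 min, 6.97, 6.84 and 6.98 at 30 min, with 7.28, 7.38 and 7.29 in *stn7* at 0 min and 8.92, 8.51 and 8.78 at 30 min. It fell in WT by 1.1 and rose in *stn7* by 1.42, a difference of 2.52 ± 0.28 (limma adjusted p = 0.000822), and like COR15A it was called in all 23 alternative runs.

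COR15A belongs to a group of cold-regulated and dehydrin genes, hydrophilic proteins that accumulate in cold and drought. The group was put together by name after values were seen, so its count is a description. Of 6 measured members 4 were lower, where 1.08% of all probe sets were, and the group median was -1.27 beside 0.02 over all probe sets. COR15B, the tandem neighbour of COR15A, had levels of 10.04, 10.11 and 10.08 in WT at 0 min, 10.50, 10.52 and 10.28 at 30 min, with 10.03, 10.31 and 10.07 in *stn7* at 0 min and 9.61, 9.03 and 8.97 at 30 min. The *stn7* arrays at 30 min were again the lowest, and the difference was -1.29 ± 0.26 (limma adjusted p = 0.0281). Signal shared between the similar COR15A and COR15B transcripts was not tested.

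COR47 and AT1G54410, both dehydrin genes, took another course. COR47 rose in WT from 10.78, 11.36 and 10.69 to 12.25, 12.25 and 12.29, whereas the *stn7* arrays were at 12.08, 12.01 and 11.61 in PSI light and at 11.61, 12.11 and 12.18 after 30 min. The *stn7* plants were thus above WT before the shift, by 0.96 (limma adjusted p = 0.00441), and did not differ by a called amount at 30 min (-0.30, adjusted p = 0.406). The value was -1.26 ± 0.24 (limma adjusted p = 0.0247). AT1G54410, listed as HIRD11, also started higher in *stn7* (by 1.00, adjusted p = 0.00555) and had a value of -1.37 ± 0.28 (adjusted p = 0.0281). COR27, a cold-regulated gene that also acts in the clock, had 0.57 ± 0.23 (adjusted p = 0.171), and the dehydrin gene LEA, dim at a mean level of 3.61, had -0.16 ± 0.19.

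With the axis COR15B kept its size (-1.35, limma adjusted p = 0.134), while COR47 went to -0.76 and AT1G54410 to -0.83. The group count was 1 with the axis, 1 without both WT 0 min arrays of high axis score and 2 with only the 12 arrays. It was 1 without WT 0 min replicate 1 or 3, WT 30 min replicate 2 or *stn7* 0 min replicate 1, and 2 without *stn7* 0 min replicate 2 or *stn7* 30 min replicate 2 or 3.

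Mitochondria carry their own genome, which encodes subunits of respiratory complex I (nad genes), of cytochrome oxidase (cox genes) and factors of cytochrome c assembly (ccb genes). The RNA was labelled with a kit that primes on poly(A) tails, which mature plant mitochondrial transcripts mostly lack, so the levels depend on a small part of these RNAs. Mitochondrion-encoded genes were taken as lower-case symbols for which RefSeq gave no chromosome, a rule set once the annotation was seen. Of 16 measured mitochondrion-encoded genes 6 were higher (37.5%, against 0.954% of all probe sets) and 0 lower, and 10 had an unadjusted p under 0.05. The list median was 0.55 beside 0.02 over all probe sets. In WT 7 of the 16 fell and 1 rose (median -0.37), and in *stn7* 2 rose and 0 fell (median 0.13).

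Cytochrome oxidase gene cox2 had the largest value. Its levels were 6.49, 6.35 and 6.47 in WT at 0 min, 5.35, 5.24 and 5.23 at 30 min, with 5.13, 5.40 and 6.0 in *stn7* at 0 min and 5.79, 6.26 and 6.17 at 30 min. WT started above *stn7* and ended below it, with no overlap at either time. The difference was 1.73 ± 0.26 (limma adjusted p = 0.00688), and with the axis it was 1.41 (adjusted p = 0.0598). The other cytochrome oxidase gene on the list, cox1, had 1.09 ± 0.20 (adjusted p = 0.0217).

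Among complex I genes nad9 was the one also called with the axis. Its levels were 5.77, 5.59 and 5.55 in WT at 0 min, 5.27, 5.24 and 5.18 at 30 min, with 5.39, 5.34 and 5.48 in *stn7* at 0 min and 5.77, 6.2 and 6.06 at 30 min. It fell in WT (-0.41) and rose in *stn7* (0.60), a difference of 1.01 ± 0.16 (limma adjusted p = 0.00858). In nad5 the value was 1.37 ± 0.24 (adjusted p = 0.0191), again with a fall in WT (-0.67) and a rise in *stn7* (0.71). In nad6 it was 1.16 ± 0.23 (adjusted p = 0.0253). The level of nad6 fell in WT by 1.03, and its rise of 0.13 in *stn7* was not called.

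The assembly gene ccb452 had 1.12 ± 0.17 (limma adjusted p = 0.00601). Its arrays fell in WT from 6.66, 6.42 and 6.35 to 5.79, 5.69 and 5.46, and the *stn7* arrays read 5.88, 5.88 and 6.2 and then 6.34, 6.3 and 6.19. The remaining 10 genes were not called, and 3 of them (ccb382, nad7 and nad2) had negative values. For ccb382 the value was -0.50 ± 0.23 (adjusted p = 0.237), and it rose in WT (0.55). The genes differ in how many probe sets they have: nad1 has 7, with values from -0.16 to 1.28, of which 1 was called, and the brightest of them had 0.73 ± 0.27 (adjusted p = 0.145). These probe sets were looked at after the list was counted.

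**Figure D3:**
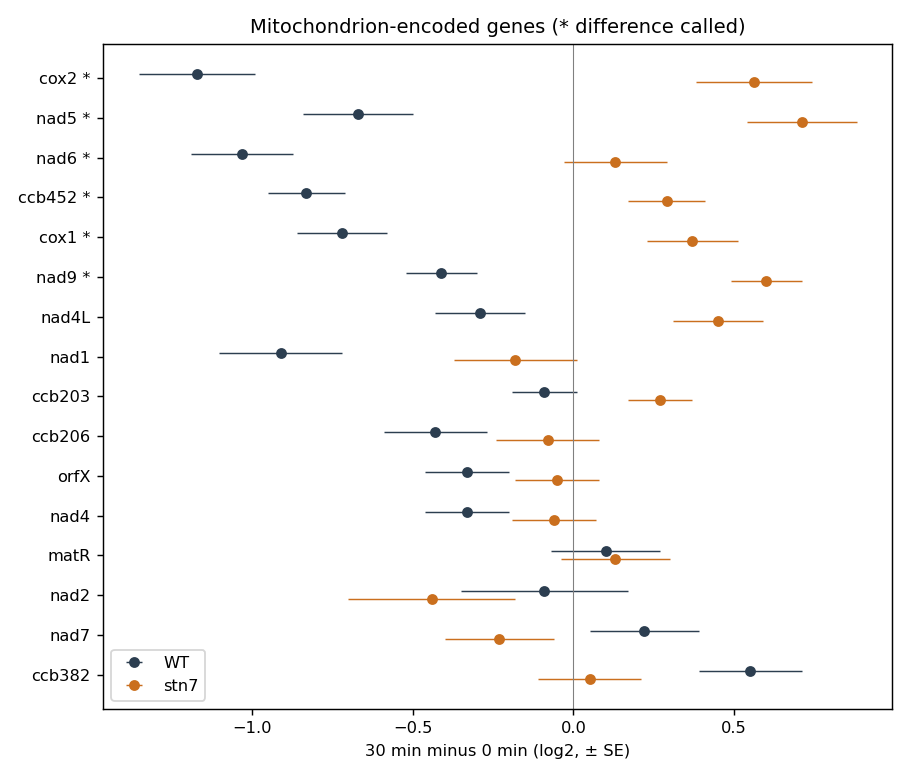
Change from 0 to 30 min (log2, ± SE) of the 16 mitochondrion-encoded genes in WT and *stn7*, ordered by the genotype difference, with the brightest probe set of each gene; an asterisk marks the 6 genes with a called difference. The WT points lie below 0 for all 6 of these and the *stn7* points above it.

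Chromosome 2 of this accession holds a large copy of the mitochondrial genome, whose loci carry AT2G07 numbers, and similar probes cannot separate copy and organelle. AT2G07741 fell in WT from 7.98, 7.58 and 7.59 to 6.75, 6.67 and 6.47. In *stn7* it read 6.33, 6.76 and 7.34 at 0 min and rose to 7.56, 7.42 and 7.48. Its difference was 1.77 ± 0.26 (limma adjusted p = 0.00601), and 1.32 with the axis (adjusted p = 0.0359). AT2G07718 had 1.16 ± 0.23 (adjusted p = 0.0268).

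Signal bears on the mitochondrial values. Except for cox1 (mean level 7.16), the called genes had mean levels from 4.72 to 6.13, near or below the medians of the arrays, and background can shrink differences at such levels. With the axis 1 of the 16 was called and the median was 0.39. Without both WT 0 min arrays of high axis score 0 were called (limma), with a median of 0.68, and cox2 still had 1.63 (adjusted p = 0.212). Without WT 0 min replicate 1, WT 0 min replicate 3 or *stn7* 30 min replicate 3 the count was 3 each, and it was 4 without *stn7* 0 min replicate 1. Among probe sets above the median signal 4 of the 16 genes remained and 1 of them was called.

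Of the named genes that were not called with the axis, 3xHMG-box2, which binds the chromosomes of dividing cells, had the largest negative value. Its levels were 5.88, 6.71 and 5.72 in WT at 0 min, 6.81, 7.58 and 7.45 at 30 min, with 7.87, 7.2 and 6.85 in *stn7* at 0 min and 6.49, 6.4 and 6.32 at 30 min. WT rose and lay below *stn7* before the shift and above it after, and the difference was -2.09 ± 0.40 (limma adjusted p = 0.0253). With the axis it was -1.28 (adjusted p = 0.13), and it was not called without WT 0 min replicate 1 or 3, WT 30 min replicate 2, *stn7* 0 min replicate 1 or *stn7* 30 min replicate 3.

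A group of genes of chromosome structure and cell division was assembled after values were seen. Of its 16 measured members 4 were lower (25%, against 1.08% of all probe sets) and 0 higher, with a median of -0.30 beside 0.02 over all probe sets. Beside 3xHMG-box2 these were TOPII, topoisomerase II, which untangles DNA (-1.35 ± 0.30, limma adjusted p = 0.0355), HTB2, a histone H2B gene (-1.25 ± 0.27, adjusted p = 0.0332), and KINESIN-12B, a motor protein of the phragmoplast (-0.84 ± 0.19, adjusted p = 0.0365). KINESIN-12B was dim, at a mean level of 4.08. TOPII arrays read 4.19, 4.94 and 4.28, then 4.97, 5.65 and 5.32 in WT, and 5.55, 5.14 and 4.85, then 4.78, 4.66 and 4.57 in *stn7*. AUR2, an Aurora kinase of mitosis, fell in *stn7* (-1.35) and had a difference of -0.97 ± 0.26 (adjusted p = 0.058). The Aurora genes AUR1 (0.02 ± 0.23) and AUR3 (0.21 ± 0.22) fell in both genotypes. Values were above 0 for 5 of the 16 members and below 0 for 11. None of the 16 was called by limma with the axis, with only the 12 arrays, or without WT 0 min replicate 1 or 3, WT 30 min replicate 2, *stn7* 0 min replicate 1 or *stn7* 30 min replicate 3. The count was 1 without WT 30 min replicate 3, *stn7* 0 min replicate 2 or *stn7* 30 min replicate 2, 2 without *stn7* 30 min replicate 1 or with the replicate number as a block, and 6 without WT 0 min replicate 2. None of the fixed markers of dividing cells had a named probe set, so their part in this group was not tested, and in whole rosettes fewer cells of a type and less RNA per cell cannot be told apart.

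Among the 15 largest negative values 11 genes changed in WT and 6 in *stn7*. Over all probe sets 27.6% changed in WT and 7.25% in *stn7*. Ranking by the difference of these changes favours genes that changed, so the counts are a description. AT5G01870 was like AT3G05730: the WT arrays lay between 6.81 and 7.64 at both times, and *stn7* fell from 7.32, 7.27 and 7.30 to 5.93, 5.28 and 4.92. Its difference was -1.83 ± 0.35 (limma adjusted p = 0.0253) and -2.07 with the axis (adjusted p = 0.0598). AT3G56360 also fell in *stn7* (-1.43) with 0.17 in WT, and had a difference of -1.60 ± 0.31. The lipid gene CCT2, of phosphatidylcholine synthesis, belonged to the opposite pattern: it rose in WT from 6.02, 6.68 and 5.48 to 7.60, 7.86 and 7.62 and stayed between 6.81 and 7.57 in *stn7*. Its difference was -1.57 ± 0.37 (adjusted p = 0.0427) and -0.80 with the axis.

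AT5G50740 (-1.82), AT4G22000 (-1.70), AT3G13190 (-1.68), AT3G05760 (-1.65), AT3G52220 (-1.64), AT3G57930 (-1.60) and AT3G29375 (-1.56) shared the course of CCT2. All 7 rose in WT, by 1.53 to 1.80 on the log2 scale, and had *stn7* changes between -0.15 and 0.14 that were not called. In each of them all WT 0 min arrays were below all *stn7* 0 min arrays, and with the axis their differences lay between -1.03 and -0.81. AT1G04800 (-1.77) and AT3G10020 (-1.57) fell in *stn7*, and AT3G10020 also rose in WT.

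On the positive side 14 of the 15 largest values came with a fall in WT and 3 with a rise in *stn7*. Over all probe sets 13.6% fell in WT and 3.47% rose in *stn7*. Ranking by the difference of these changes favours such genes, so the counts are a description. SPT, SPATULA, a bHLH regulator that restrains organ growth, fell in WT from 6.56, 6.36 and 6.52 to 5.68, 5.80 and 5.09. Its *stn7* arrays read 5.30, 5.88 and 6.16 and then 6.29, 6.25 and 6.19, and the difference was 1.42 ± 0.27 (limma adjusted p = 0.0236). MSRB6, a methionine sulfoxide reductase that repairs oxidised methionine, had 1.2 ± 0.27 (adjusted p = 0.0393) and bZIP44, a transcription factor, 1.18 ± 0.26 (adjusted p = 0.0353). Both fell in WT, by 1.14 and 0.92, with 0.06 and 0.25 in *stn7*. AT5G25450 (1.39), AT1G14120 (1.33), AT1G36060 (1.24), AT3G51500 (1.2) and AT1G65500 (1.2) did the same, with WT falls from 0.96 to 1.38 on the log2 scale. With the axis the values of SPT, MSRB6 and bZIP44 were 0.95, 0.66 and 0.67, and none of them was called.

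**Figure D4:**
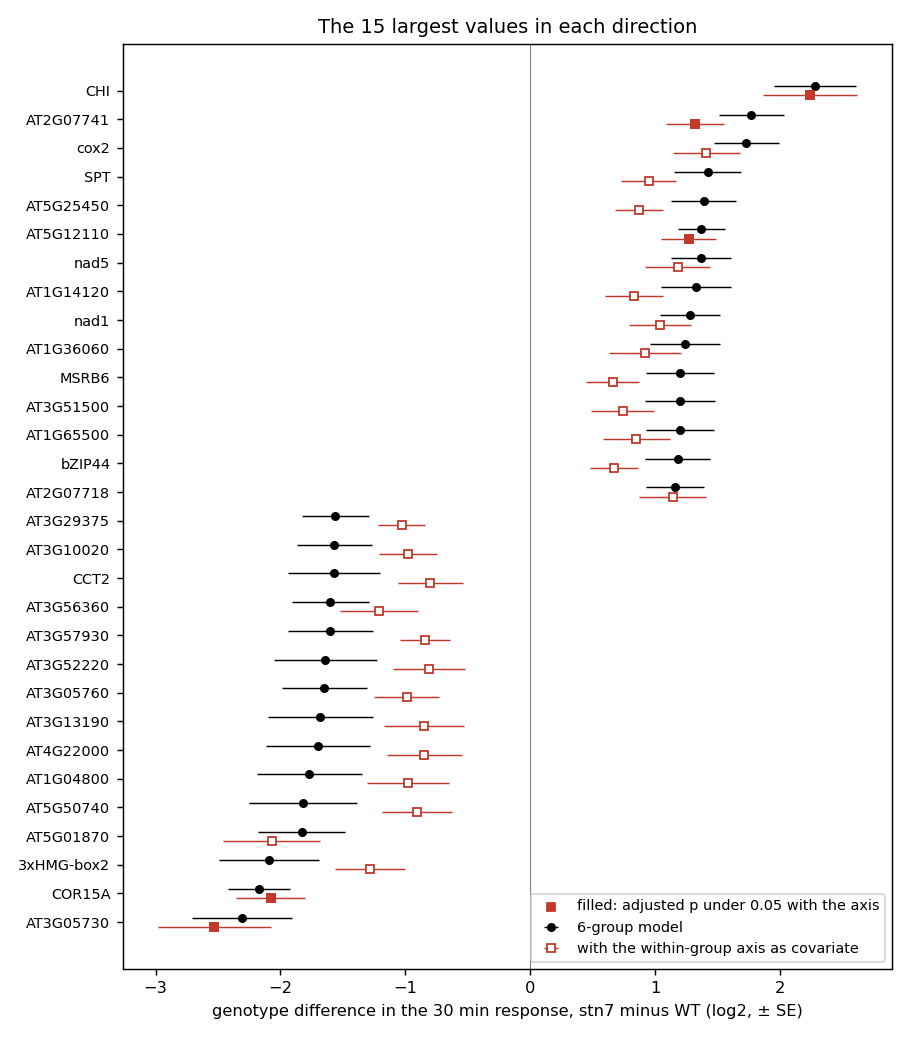
Genotype difference in the 30 min response (log2, ± SE) of the 15 largest called values in each direction, from the model with 6 group means (black) and with the within-group axis added (red, filled where still called). CHI, AT2G07741, AT5G12110, COR15A and AT3G05730 stayed past the threshold, and most negative values moved toward 0 by more than their SE.

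Of the 30 genes 5 were called with the axis, 7 with only the 12 arrays, 5 without WT 0 min replicate 1, 5 without WT 0 min replicate 3 and 1 without both. All 30 were called without WT 0 min replicate 2. Genes that changed in opposite directions in the genotypes were looked at after their values were seen. Only the 463 probe sets with a called difference were searched for them. Calling by the difference of the changes favours opposite directions, so the counts are a description. The share over all probe sets was not counted. Of the 26 such probe sets, 14 with a fall in WT and a rise in *stn7* and 12 with the reverse, 12 had 1 gene. They include COR15A, AT2G36630, nad5, nad9, AT2G07741 and AT3G10020 above, and AT2G37900 (0.90 ± 0.18) among the higher ones. The lower ones were AT2G02170 (-1.22 ± 0.24), AT1G33790 (-1.14 ± 0.22), AT5G62280 (-1.08 ± 0.19), AT1G57770 (-0.79 ± 0.15) and AT3G15550 (-0.79 ± 0.16), with limma adjusted p from 0.0197 to 0.0293. None of these last 6, AT2G37900 included, was called with the axis, or without WT 0 min replicate 1 or *stn7* 0 min replicate 1. Of the 12 runs with 1 array left out, AT5G62280 was called in 9, AT1G33790 in 6, AT2G37900, AT1G57770 and AT3G15550 in 5 each and AT2G02170 in 4. AT3G15550 was dim, at 3.5 to 4.42 on the 12 arrays compared.

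The group of 9 ATG8-type and related genes, which tag and build autophagosomes, was also assembled after values were seen. All 9 fell in WT, where 13.6% of all probe sets did, and 4 fell in *stn7*, where 3.78% did. A higher value was called for 1 of them (11.1%, against 0.954% of all probe sets), with a group median of 0.25 beside 0.02. This was ATG8B (1.11 ± 0.25, limma adjusted p = 0.0364), whose arrays read 9.27, 8.78 and 9.26, then 8.59, 8.14 and 7.88 in WT, and 7.90, 8.24 and 8.43, then 8.29, 8.39 and 8.52 in *stn7*. WT at 0 min was the high group and the other 3 overlapped. With the axis the value of ATG8B was 0.73 (adjusted p = 0.297) and the group median was 0.03. Without both WT 0 min arrays of high axis score the group median was 0.06. ATG8B was also not called with only the 12 arrays or with the replicate block, and with 1 array left out it was called only without WT 0 min replicate 2, WT 30 min replicate 1 or *stn7* 0 min replicate 3.

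The few measured genes of photosynthesis itself had no called difference. Measured were 3 of 10 listed genes of thylakoid kinases and cyclic flow, 3 of 19 of the light-harvesting antenna and 5 of 23 photosystem subunits. For electron transport and ATP synthase it was 1 of 9, for the Calvin-Benson cycle 3 of 15 and for tetrapyrrole synthesis 5 of 16. Of the 20 genes in these 6 lists 0 were called by limma, with 5 at an unadjusted p under 0.05. Their values ran from -0.70 to 0.28 with a median of -0.16, and only the thylakoid kinase list had a value above 0 (1 of 3). All 5 tetrapyrrole genes were below 0, with a median of -0.42 (-0.17 with the axis), and 3 had an unadjusted p under 0.05 (limma). Over the 20 genes the half-width of the 95% interval, not adjusted for the number of probe sets, was 0.33 at the median and at most 0.46. Calls used the stricter adjusted p, so differences larger than this could also go uncalled. The largest differences were those of CHLI2, a subunit of the magnesium chelatase that starts chlorophyll synthesis (-0.70 ± 0.22, limma adjusted p = 0.0929), and SBPASE of the Calvin-Benson cycle (-0.63 ± 0.20, adjusted p = 0.0899). SBPASE rose in WT (0.58) and had -0.05 in *stn7*. CaS, a calcium-sensing phosphoprotein of the thylakoid, had -0.53 ± 0.20 (adjusted p = 0.144), and the antenna gene LHCB4.1 had -0.19 ± 0.12 (adjusted p = 0.429).

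Of 69 plastid-encoded genes 0 were called by limma and 8 had an unadjusted p under 0.05, with a median of 0.08. Their values ran from -1.02 to 0.71, so differences of this size went uncalled. The labelling primes on poly(A) tails, and its effect on the levels of plastid-encoded genes was not tested. The gene of the large Rubisco subunit, rbcL, had -0.59 ± 0.21 (adjusted p = 0.124) and petB of the cytochrome b6f complex 0.51 ± 0.19 (adjusted p = 0.143). With the axis the median was 0.30 with 0 called. Redox enzymes were near the threshold in 1 case: NTRC, a plastid thioredoxin reductase fused to a thioredoxin, had -0.51 ± 0.13 (adjusted p = 0.0549). The ascorbate peroxidase TAPX of the thylakoid had -0.47 ± 0.15 (adjusted p = 0.103).

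Shade avoidance genes respond to light poor in red relative to far red. IAA29, an auxin-responsive member of this list, fell in both genotypes (-2.5 ± 0.22 in WT and -3.15 ± 0.22 in *stn7*). The difference was -0.65 ± 0.31 (limma adjusted p = 0.259), with a 95% interval of -1.31 to 0.01, and 0 of the 3 measured members were called. The clock gene GI rose in *stn7* (0.66) with 0.12 in WT, and its difference of 0.55 ± 0.14 was close to the threshold (adjusted p = 0.0536).

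The larger families had 1 call each at most, where 2.04% of all probe sets were called. Of 28 expansin and xyloglucan enzyme genes, which loosen cell walls, 1 (3.57%) was called, EXLB1 (-0.67 ± 0.17, limma adjusted p = 0.0484), which fell in *stn7*. With 1 array left out EXLB1 was called only without WT 0 min replicate 2 or *stn7* 0 min replicate 3, and it was not called with the axis (adjusted p = 0.184), the block (0.0714) or only the 12 arrays (0.0821). Of 55 glutathione transferase and glucosyltransferase genes 1 (1.82%) was called, UGT85A2 (-0.82 ± 0.21, adjusted p = 0.0487), which rose in WT. UGT85A2 was called in 3 of the 12 runs with 1 array left out, those without WT 0 min replicate 2, WT 30 min replicate 1 or *stn7* 0 min replicate 3, and not with the axis (adjusted p = 0.368) or the block (0.0718). The count for its list was 0 to 7 over these 12 runs. Among 8 kinesin and related genes KINESIN-12B was the called one. Of 7 WRKY factors 0 were called by limma and 1 had an unadjusted p under 0.05, ZAP1 (-1.24 ± 0.38, adjusted p = 0.0889).

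The few measured markers of other cell types gave no called difference. Measured were 2 of 5 markers of guard cells and 2 of 5 of roots. Of flowers (6 listed), seeds (5) and vasculature (4) 0 were measured, so these were not tested. The guard cell genes AT1G22690 (GC1) and FMA (FAMA) had -0.71 ± 0.24 (limma adjusted p = 0.118) and 0.40 ± 0.17 (adjusted p = 0.209), and AT1G22690 fell in *stn7* (-0.73). The root genes EXPA7, dim at a mean level of 4.12, and PYK10 had -0.04 and 0.05. Of the reference genes AT2G28390 (SAND) had 0.13 ± 0.17 and PEX4 0.45 ± 0.15 (adjusted p = 0.116), and PEX4 fell in WT (-0.50).

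The 60 min difference shares its 0 min arrays with the 30 min one and is given side by side only. It was -1.19 for COR15A beside -2.17 at 30 min, -0.76 for COR15B beside -1.29, -1.88 for AT3G05730 beside -2.31 and 1.59 for CHI beside 2.28. It was -1.71 for COR47 beside -1.26, -2.86 for 3xHMG-box2 beside -2.09 and -3.01 for AT4G22000 beside -1.70. For cox2 it was 1.84 beside 1.73 and for nad9 0.81 beside 1.01.

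**Figure D5:**
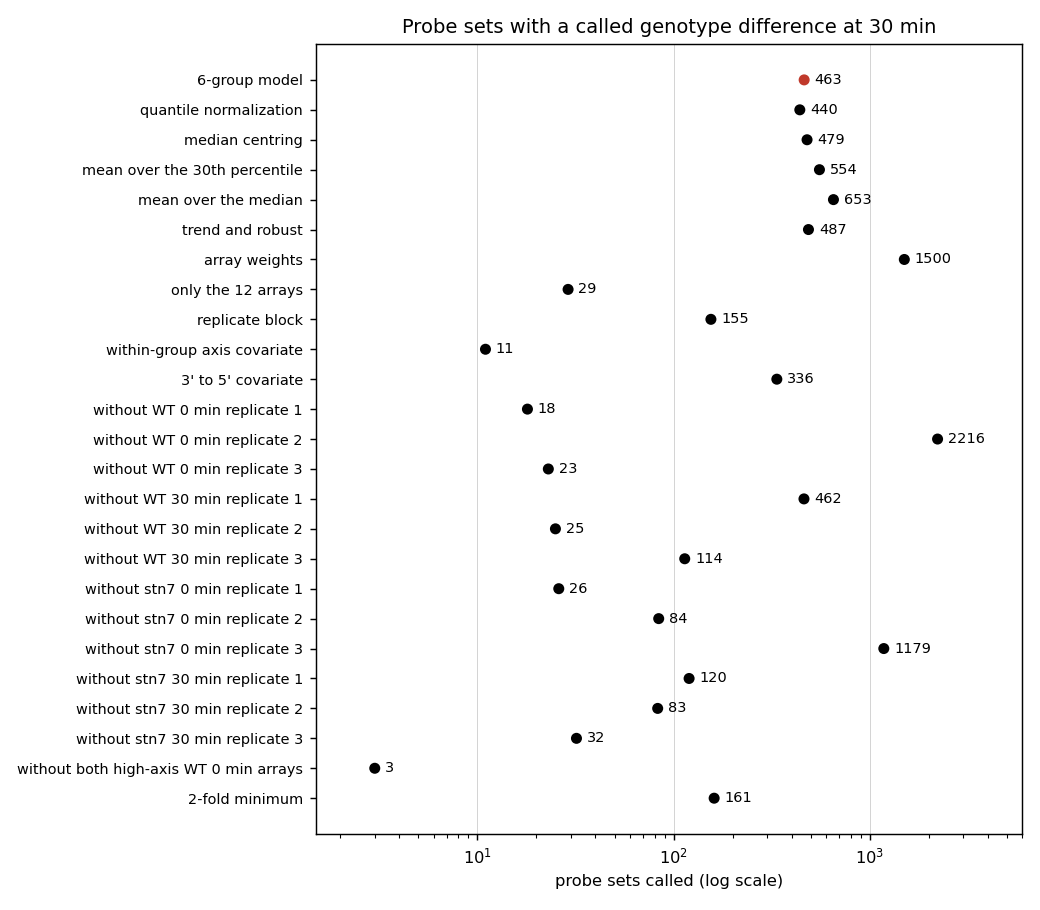
Number of probe sets with a called genotype difference in the 30 min response (log axis) in the model with 6 group means (red, 463) and in each alternative. Leaving out 1 array at a time gave 18 to 2216, the within-group axis 11, and leaving out both WT 0 min arrays of high axis score 3.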

How the data were processed

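RNA of Arabidopsis rosette leaves was measured on one-colour Affymetrix arrays, labelled with the 3' IVT Express kit per the labels' protocols. The deposited values are log2 levels per probe set, made by the authors with GCOS, Affymetrix Expression Console 1.1 and RMA per the submitters' processing notes. How RMA was set, and with which probe set definition, is not given in the sources used here. From 22810 deposited probe sets 64 controls were removed. The platform annotation gave 1 gene for 13513, several for 503 and did not list 8730, which were tested and counted without a name. Symbols were updated through RefSeq (TAIR10.1), which 13436 matched.

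The model had a mean for each of the 6 groups and used all 18 arrays (lmFit, contrasts.fit and eBayes of limma 3.58.1, R 4.3.3), with no filter or further scaling. The test was two-sided with 17.8 degrees of freedom, adjusted by Benjamini-Hochberg over 22746 probe sets, and called at an adjusted p under 0.05. Its code was tested on simulated data with noise drawn independently for each probe set and array. Those data held no within-group axis, so that test cannot vouch for the number of calls. The labels call the 3 samples of a group biological replicates. The number of arrays limits the precision.

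Members, gene lists and alternatives were chosen with earlier results of these data known. Named are the 15 largest called values in each direction among probe sets with 1 gene, up to 10 in each direction also called with the within-group axis as covariate, and of each list up to 4 called members or the 2 of smallest p. The mitochondrial list, the cold, cell division and autophagy groups and the genes of opposite direction go beyond this rule. A gene with several probe sets is counted by the brightest. Named probe sets covered 42 of 216 listed nuclear genes, and 28 of 41 lists had a measured member. Lists by product words were matched on symbols and synonyms, and the planned promoter motif search was not run. The alternatives were quantile normalization, median centring, signal filters (30th percentile; median), trended and robust eBayes, arrayWeights, only the 12 arrays compared, the replicate number as a block, the axis, the 3' minus 5' difference of 6 pairs of control probe sets, at least 2-fold, and each array left out in turn. Python 3.11.15 with pandas 2.3.3, scipy 1.17.1 and matplotlib 3.10.9 made tables and plots.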

Additional observations from a re-analysis of the deposited data

Results flagged for a closer look

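The 50 named genes below are given because their 30 min change differed between the genotypes by the test of the difference itself (limma, adjusted p under 0.05, in log2 units, *stn7* minus WT). Higher values in *stn7* were those of CHI (2.28), AT2G07741 (1.77), cox2 (1.73), SPT (1.42), AT5G25450 (1.39), nad5 (1.37), AT5G12110 (1.37), AT1G14120 (1.33), nad1 (1.28), AT1G36060 (1.24), AT3G51500 (1.2), AT1G65500 (1.2), MSRB6 (1.2), bZIP44 (1.18), AT2G07718 (1.16), nad6 (1.16), ccb452 (1.12), AT2G36630 (1.11), ATG8B (1.11), cox1 (1.09), nad9 (1.01) and AT2G37900 (0.90). Lower values were those of AT3G05730 (-2.31), COR15A (-2.17), 3xHMG-box2 (-2.09), AT5G01870 (-1.83), AT5G50740 (-1.82), AT1G04800 (-1.77), AT4G22000 (-1.70), AT3G13190 (-1.68), AT3G05760 (-1.65), AT3G52220 (-1.64), AT3G57930 (-1.60), AT3G56360 (-1.60), CCT2 (-1.57), AT3G10020 (-1.57), AT3G29375 (-1.56), AT1G54410 (-1.37), TOPII (-1.35), COR15B (-1.29), COR47 (-1.26), HTB2 (-1.25), AT2G02170 (-1.22), AT1G33790 (-1.14), AT5G62280 (-1.08), KINESIN-12B (-0.84), UGT85A2 (-0.82), AT1G57770 (-0.79), AT3G15550 (-0.79) and EXLB1 (-0.67). Many of these calls were lost under the alternatives, as counted in the next part, and no cause was tested.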

How the results depend on the processing

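The count of 463 called probe sets stayed within 1.5 times under quantile normalization, median centring, both signal filters, the trended robust variance and the 3' minus 5' covariate (336 to 653). It moved to 1500 with array weights, 29 with only the 12 arrays, 155 with the replicate block, 11 with the within-group axis, 161 with a 2-fold minimum and 3 without both WT 0 min arrays of high axis score, a setting chosen after seeing the data. Leaving out 1 array gave 18 to 2216: for WT at 0 min 18, 2216 and 23 without replicates 1, 2 and 3, for WT at 30 min 462, 25 and 114, for *stn7* at 0 min 26, 84 and 1179, and for *stn7* at 30 min 120, 83 and 32. The share of higher calls went from 46.9% to 62.1% with only the 12 arrays, 63.6% with the axis, 29.8% at 2-fold and 33.3% without both arrays, and was 46.4% and 50.7% under the other scalings. Deviations of same-numbered arrays correlated at r from -0.411 to 0.292, over 0.1 in 6 of 18 pairs. Deviations from a mean of 3 arrays depend on each other, so these correlations cannot tell whether same-numbered samples belong together. The replicate numbers are those of the titles, and the descriptions number the third 0 min array of each genotype differently. With the block 18 of the 30 genes of largest value were called. The 51 called probe sets named kept their sign in every run in which they were tested; 465 of those values missed the threshold and 689 passed. Values that turned sign belonged to genes that were not called, and the following are among them. For matR (0.02) the value was -0.19 with the axis, -0.08 without both arrays, and -0.16 to 0.19 with 1 array left out. For nad2 (-0.35) it was 0.11 with the axis and 0.02 without both arrays. EXPA7 (-0.04) had 0.08 without both arrays and -0.11 to 0.07 with 1 array left out. PYK10 (0.05) had -0.02 under quantile normalization, -0.09 with the axis and -0.04 to 0.17 with 1 array left out. AUR1 (0.02) had -0.22 with the axis and -0.15 to 0.12 with 1 array left out. AUR3 (0.21) had -0.1 with the axis and -0.09 without both arrays. Dim probe sets lie near background, which compresses differences.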
